A study of Mus musculus with 8 samples.

Results

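Transcripts of 10 mouse genes that encode the machinery of mitochondrial fusion and fission were measured in heart ventricle of mice with floxed Med13 and Med13l, with and without a Cre recombinase in cardiomyocytes. The genes were chosen by name: 3 for fusion (Opa1, Mfn1, Mfn2), 5 for fission (Dnm1l, Fis1, Mff, Mief1, Mief2) and 2 for proteases of the inner membrane (Oma1, Yme1l1). All 10 were found by symbol among the 24341 genes of the deposited table, and all 10 passed the filter on low values. The study sequenced ventricular lysate of male mice aged 12 weeks, 4 weeks after tamoxifen, in 8 libraries. The strain of every library was Med13/13L fl/fl, that is, homozygous for floxed alleles of both genes, and every mouse was fed Tamoxifen Chow. The 4 cre_positive libraries came from mice that also carry a cardiomyocyte-specific Cre, and the 4 cre_negative libraries came from mice without it. The labels give no name for the Cre line, and since no group carried Cre without the floxed alleles, an effect of Cre itself and one of the deletion cannot be told apart. Libraries are numbered by the sample number of their titles.

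Mitochondria are remade by cycles of joining and division. Mfn1 and Mfn2 encode mitofusins, GTPases that fuse the outer membranes, and Opa1 encodes a dynamin-like GTPase that fuses the inner membranes and shapes the cristae. Dnm1l encodes Drp1, a cytosolic dynamin that constricts the organelle after Mff and the paralogs Mief1 and Mief2 recruit it to the outer membrane, where Fis1 also resides. Oma1 and Yme1l1 cut long forms of the Opa1 protein into short ones, Oma1 mainly under stress. Cardiomyocytes are packed with mitochondria, and genes of both processes are needed in the adult mouse heart.

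All 3 fusion genes and the protease gene Oma1 fell in cre_positive ventricles. The mean level of Opa1 was lower by 45.1%, that of Mfn1 by 36.6%, that of Mfn2 by 35.3% and that of Oma1 by 33.5%. None of the 5 fission genes was called, and Yme1l1 was not called. In all, 4 of 10 genes were called lower and 0 higher by limma at an adjusted p under 0.05, where 19.4% of the 11688 genes tested were called lower, 19.7% higher and 39.2% either way. At an unadjusted p under 0.05 there were 5 of the 10, the added gene being Fis1. The groups did not overlap in the 4 called genes, all lower, against 18.7% of all genes not overlapping with lower values, 19.3% with higher values and 38.0% in either direction. The median log2 change was -0.65 over the fusion genes, -0.07 over the fission genes and -0.01 over all genes tested.

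The 250 bases before the start site are shown for the 4 genes that fell and for Fis1, the member with the most positive log2 change, so that genes with unlike changes can be compared. They come from RefSeq (GRCm38.p6) and, where a gene has several curated start sites, lie before the one farthest upstream. Capitals mark matches on either strand to the motif of NRF1, a transcription factor of nuclear genes for mitochondria (GCGCA, any base, then GCGC), or to an ETS motif (CCGGAAGT), as bound by GABP. The third motif searched was the ERR element TNAAGGTCA, bound by estrogen-related receptors.
Opa1, chr16:29579084-29579333, plus strand: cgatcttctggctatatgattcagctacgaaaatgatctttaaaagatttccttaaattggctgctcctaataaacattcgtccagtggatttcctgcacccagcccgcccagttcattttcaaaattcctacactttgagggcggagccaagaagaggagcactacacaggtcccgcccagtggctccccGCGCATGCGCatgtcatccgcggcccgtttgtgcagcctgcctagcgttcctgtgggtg
Mfn1, chr3:32529232-32529481, plus strand: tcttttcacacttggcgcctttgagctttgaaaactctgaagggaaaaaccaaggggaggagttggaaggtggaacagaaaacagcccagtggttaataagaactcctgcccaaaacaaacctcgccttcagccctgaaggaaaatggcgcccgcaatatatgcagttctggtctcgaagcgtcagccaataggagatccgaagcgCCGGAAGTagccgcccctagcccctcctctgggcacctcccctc
Mfn2, chr4:147904910-147905159, minus strand: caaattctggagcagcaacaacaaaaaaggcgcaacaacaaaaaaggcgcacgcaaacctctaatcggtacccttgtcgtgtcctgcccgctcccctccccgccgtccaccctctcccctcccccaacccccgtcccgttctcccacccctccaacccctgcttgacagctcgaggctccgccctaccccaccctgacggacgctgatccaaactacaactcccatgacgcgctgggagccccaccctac
Oma1, chr4:103313596-103313845, plus strand: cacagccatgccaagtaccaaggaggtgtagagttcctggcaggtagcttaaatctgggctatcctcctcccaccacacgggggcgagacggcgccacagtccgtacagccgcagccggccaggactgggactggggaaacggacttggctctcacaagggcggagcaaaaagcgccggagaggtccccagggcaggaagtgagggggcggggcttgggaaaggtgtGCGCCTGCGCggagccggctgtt
Fis1, chr5:136953025-136953274, plus strand: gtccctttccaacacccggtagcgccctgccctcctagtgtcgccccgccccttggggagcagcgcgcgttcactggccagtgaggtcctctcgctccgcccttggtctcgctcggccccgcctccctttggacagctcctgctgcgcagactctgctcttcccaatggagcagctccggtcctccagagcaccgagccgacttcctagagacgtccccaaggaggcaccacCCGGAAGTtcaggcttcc
Opa1 had an NRF1 match that began 59 bases before the start site and Oma1 one that began 23 bases before it. ETS matches began 44 bases before the start site of Mfn1 and 18 bases before that of Fis1, and Mief1 held one that began 65 bases before it. By gene, 2 of 10 members had an NRF1 match, 3 an ETS match and 0 an ERR element. The shares among the 27025 genes with a window of that length were 4.23%, 3.23% and 1.30%. Matches thus stood before genes that fell (Opa1, Oma1, Mfn1) and before genes that were not called (Fis1, Mief1), and Mfn2, which fell, had none of these letters in its windows.

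Opa1 lies on chromosome 16 from 29579334 to 29654602 (mm10, as in the deposited table with the start counted from 1). Its level in FPKM (fragments mapped per kilobase and per 1000000 fragments) was 70.1, 67.3, 74.2 and 64.8 in cre_negative libraries 1 to 4. In cre_positive libraries 1 to 4 it was 37.7, 39.0, 37.7 and 37.3. The cre_positive values lay within a narrow band, and every one of them was far below every control. The mean over controls was 69.1 ± 4.01 FPKM (SD, n = 4) and that over cre_positive libraries 37.9 ± 0.762 FPKM (SD, n = 4). The log2 change on the log2(FPKM + 1) scale was -0.85 (SE 0.07, adjusted p = 7.79e-06 in limma). This was the largest change among the 10 genes. The log2 change was -0.84 among the 5 libraries with high Rn45s and -0.83 among the 3 with low Rn45s, a split of the libraries that is described further on.

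Mfn1 (chromosome 3, 32529482 to 32579225) had 111, 98.3, 116 and 92.2 FPKM in cre_negative libraries 1 to 4. Its levels in cre_positive libraries 1 to 4 were 61.7, 62.7, 68.8 and 72.1 FPKM. The groups were apart, with cre_positive libraries 3 and 4 closest to the controls. The mean over controls was 104.6 ± 11.2 FPKM (SD, n = 4) and that over cre_positive libraries 66.3 ± 4.999 FPKM (SD, n = 4). The log2 change was -0.65 (SE 0.09, adjusted p = 3.49e-04 in limma).

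Mfn2 (chromosome 4, 147873586 to 147904909), the most abundant of the 10 genes in controls, had 174, 172, 206 and 156 FPKM in cre_negative libraries 1 to 4. In cre_positive libraries 1 to 4 it was at 101, 105, 128 and 123 FPKM. Again every cre_positive value was below every control, and libraries 3 and 4 were the higher ones of their group. The mean over controls was 177 ± 21.0 FPKM (SD, n = 4) and that over cre_positive libraries 114 ± 13.4 FPKM (SD, n = 4). The log2 change was -0.62 (SE 0.11, adjusted p = 0.00118 in limma). For both mitofusins the change was larger among high-Rn45s than among low-Rn45s libraries, at -0.76 and -0.48 for Mfn1 and at -0.78 and -0.44 for Mfn2. The low-Rn45s set holds 1 control only, and the difference between the sets was not tested. With the Rn45s set as a term in limma, the change was -0.66 for each mitofusin (adjusted p = 4.46e-04 for Mfn1 and 8.01e-04 for Mfn2).

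**Figure D1:**
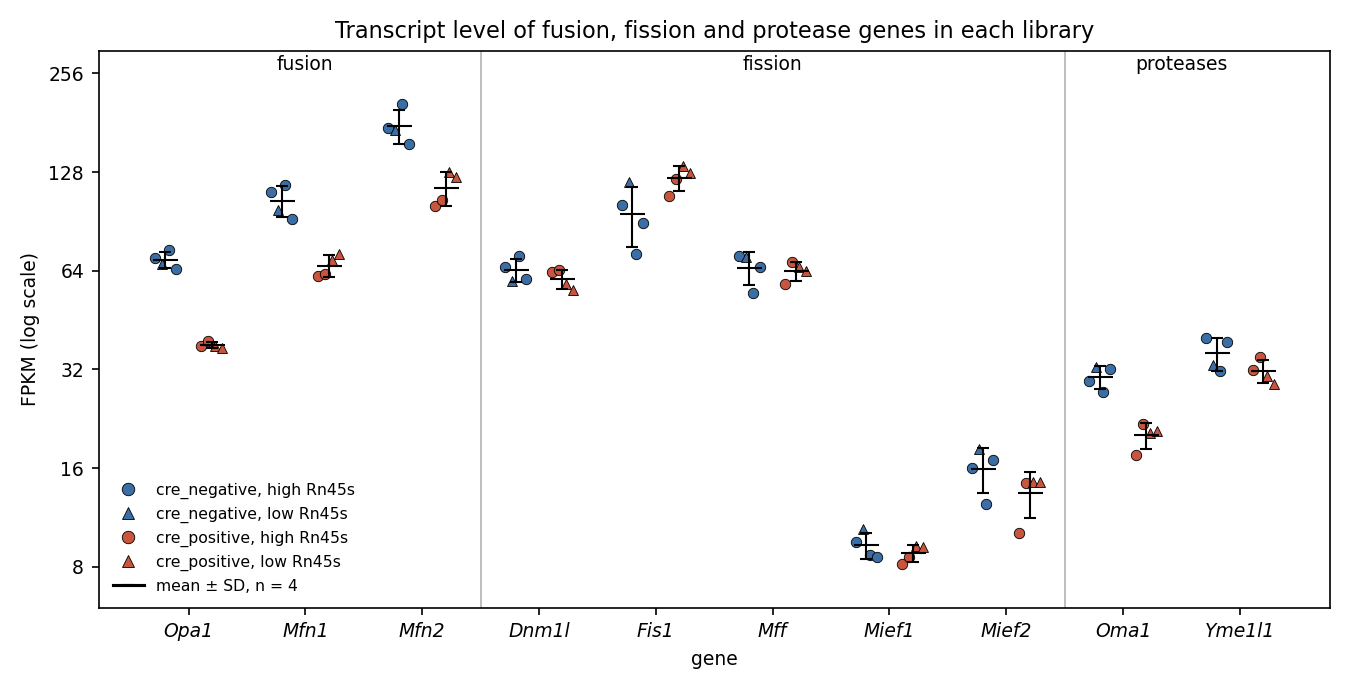
Level of each gene in FPKM (log axis) in the 4 cre_negative and 4 cre_positive libraries; points are libraries, triangles those with low Rn45s, and bars the mean ± SD. The groups are apart for Opa1, Mfn1, Mfn2 and Oma1 and overlap for the other 6 genes, and Fis1 of cre_negative library 3 is the lowest Fis1 value at 71.9 FPKM.

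On the deposited scale limma called 0 of the 5 fission genes, and 1 of them had an unadjusted p under 0.05. Dnm1l, the GTPase of division (chromosome 16, 16312228 to 16359031), had levels of 65.6, 59.8, 70.8 and 60.4 FPKM in cre_negative libraries 1 to 4, and 63.3, 64.4, 58.3 and 55.9 FPKM in the cre_positive ones. The groups overlapped, with means of 64.2 ± 5.15 and 60.5 ± 4.07 FPKM (SD, n = 4 per group). The log2 change was -0.08, with a 95% interval from -0.27 to 0.10 and a limma adjusted p of 0.464.

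Fis1, a small tail-anchored protein of the outer membrane (chromosome 5, 136953275 to 136966234), was the only fission gene with a positive log2 change on the deposited scale. It had 102, 119, 71.9 and 89.3 FPKM in cre_negative libraries 1 to 4. In cre_positive libraries 1 to 4 it was at 108, 122, 133 and 127 FPKM. All but cre_negative library 2 among the controls were below every cre_positive value, and cre_negative library 3 was the lowest of all. The means were 95.4 ± 19.9 and 123 ± 10.7 FPKM (SD, n = 4 each), and the log2 change was 0.38 with a 95% interval from 0.07 to 0.69. In limma its adjusted p of 0.0533 missed the threshold. Other settings fell on either side of it: Fis1 was called higher in 7 of 21, and the adjusted p ran from 8.48e-04 to 0.257. Depth and Rn45s moved with its level, since cre_negative library 2 and cre_positive libraries 3 and 4, the deepest and lowest in Rn45s, had the highest values of their groups. The change was 0.40 among high-Rn45s libraries, 0.13 among low-Rn45s libraries and 0.30 with the set as a term (adjusted p = 0.0563). The part of depth or ribosomal RNA in this was not tested. Without cre_negative library 3, the lowest, the change was 0.25 (limma adjusted p = 0.10).

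Mff, the main receptor of Dnm1l (chromosome 1, 82724918 to 82752389), had levels of 70.7, 70.4, 54.9 and 65.6 FPKM in cre_negative libraries 1 to 4, and 58.2, 67.9, 65.6 and 63.8 FPKM in the cre_positive ones. Its means of 65.4 ± 7.40 and 63.9 ± 4.17 FPKM (SD, n = 4 per group) gave a log2 change of -0.03, with a 95% interval from -0.24 to 0.18 and a limma adjusted p of 0.839. The groups overlapped almost fully.

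The 2 paralogs that also recruit Dnm1l were the least abundant members. Mief1 (chromosome 15, 80234080 to 80253371) had levels of 9.54, 10.4, 8.70 and 8.57 FPKM in cre_negative libraries 1 to 4, and 8.17, 8.55, 9.27 and 9.17 FPKM in the cre_positive ones. Its log2 change was -0.07, with a 95% interval from -0.26 to 0.12 and a limma adjusted p of 0.540. Neither group of Mief1 values stood above the other. Mief2 (chromosome 11, 60728398 to 60732951) had levels of 16.1, 18.4, 12.5 and 16.9 FPKM in cre_negative libraries 1 to 4, and 10.2, 14.4, 14.5 and 14.5 FPKM in the cre_positive ones. Its log2 change was -0.24, with a 95% interval from -0.55 to 0.07 and a limma adjusted p of 0.212. Without cre_positive library 1 it was -0.12 (adjusted p = 0.476). In Mief2, cre_negative library 3 lay below 3 cre_positive libraries, and cre_positive library 1 lay below all others. The intervals of the 5 fission genes, from -0.55 for the lowest bound to 0.69 for the highest, do not show that these genes were equal in both groups. Exons of Dnm1l, Mff and Mief1 overlap those of another annotated gene, over 243 of 5203, 195 of 9757 and 213 of 8106 exon bases. The other gene, absent from the deposited table in each case, lies on the opposite strand for Dnm1l and Mff. For Mief1 it is a protein-coding gene on the same strand, where strand cannot separate the reads. Whether strand was used to assign reads is not stated in the labels.

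Of the proteases that process Opa1, Oma1 fell and Yme1l1 was not called. Oma1 (chromosome 4, 103313846 to 103366428) had levels of 29.5, 32.5, 27.4 and 32.0 FPKM in cre_negative libraries 1 to 4, and 17.5, 21.9, 20.5 and 20.7 FPKM in the cre_positive ones. No value of one group reached the other. The mean over controls was 30.3 ± 2.38 FPKM (SD, n = 4) and that over cre_positive libraries 20.2 ± 1.85 FPKM (SD, n = 4). The log2 change was -0.57 (SE 0.09, adjusted p = 6.36e-04 in limma). It was -0.57 among high-Rn45s and -0.63 among low-Rn45s libraries. Yme1l1 (chromosome 2, 23156505 to 23199260) had levels of 39.8, 33.0, 31.7 and 38.8 FPKM in cre_negative libraries 1 to 4, and 31.8, 34.9, 30.6 and 28.9 FPKM in the cre_positive ones. These values overlapped, with a log2 change of -0.17, a 95% interval from -0.39 to 0.04 and a limma adjusted p of 0.182.

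**Figure D2:**
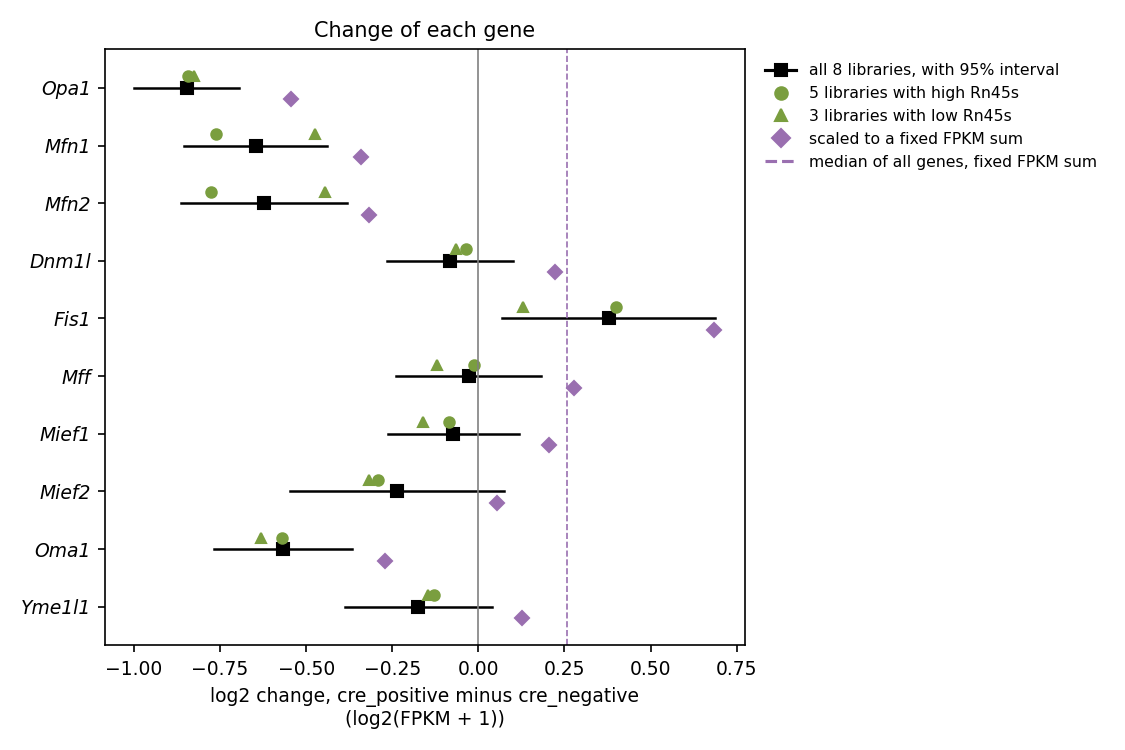
Log2 change of each gene, cre_positive minus cre_negative, on the log2(FPKM + 1) scale, with its 95% interval from limma (squares), within the high-Rn45s and low-Rn45s libraries (green) and after scaling to a fixed FPKM sum (diamonds; the dashed line is the median of all genes under that scaling, 0.26). Opa1, Mfn1, Mfn2 and Oma1 lie below 0 in each of these, from -0.85 to -0.27, while the fission genes other than Fis1 lie on both sides of 0.

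Directions depend on the scale for the genes that were not called, other than Fis1, and all but Mff turned only under scaling to a fixed FPKM sum. The sum of FPKM over all genes was 545102 to 612162 in controls and 460601 to 478667 in cre_positive libraries. Each library was then scaled to a fixed sum. The sum used for this left out genes whose symbols mark ribosomal RNA, other short noncoding RNA or ribosomal proteins. Such scaling moved the all-gene median of log2 changes from -0.01 to 0.26. On that scale 84.0% of called genes were higher, against 50.4% on the deposited scale. Opa1 (-0.54, adjusted p = 1.70e-04), Mfn1 (-0.34, adjusted p = 0.0155), Mfn2 (-0.32, adjusted p = 0.0392) and Oma1 (-0.27, adjusted p = 0.0185) were still called lower in limma, where 8.73% of genes were. Fis1 (0.69, adjusted p = 8.48e-04) and Mff (0.28, adjusted p = 0.0144) were called higher, as were 45.9% of genes, and the changes of Dnm1l (0.22), Mief1 (0.21), Mief2 (0.05) and Yme1l1 (0.13) turned positive without being called. Against the median of all genes, Mff, Dnm1l and Mief1 lay within 0.1 of it on both scales. Quantile normalization gave -0.81, -0.56, -0.53 and -0.55 for Opa1, Mfn1, Mfn2 and Oma1 and 0.47 for Fis1. Scaling by the median ratio of each library to the mean profile left the directions as deposited. It gave -0.08 for Dnm1l, -0.03 for Mff, -0.07 for Mief1, -0.24 for Mief2 and -0.17 for Yme1l1.

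Ratios between members within a library do not depend on such scaling. Opa1 and Dnm1l, the inner membrane fusion GTPase and the fission GTPase, were at nearly equal levels in controls, with Opa1 to Dnm1l ratios of FPKM of 1.07, 1.13, 1.05 and 1.07 in libraries 1 to 4. In cre_positive libraries 1 to 4 the ratio was 0.595, 0.606, 0.647 and 0.667. The groups did not overlap, and the mean ratio went from 1.08 ± 0.0334 to 0.629 ± 0.0342 (SD, n = 4 per group). The difference of the log2 ratios, cre_positive minus cre_negative, was -0.78, and 4 of 4 cre_positive libraries lay below every control. Its exact two-sided permutation p was 0.0286, the smallest that 70 assignments allow, or 0.0571 adjusted over the 4 ratios tested. The 4 pairs were chosen with earlier results of these data known, and their genes are the members already tested by limma above. The p-values of the ratios are therefore no separate support for those calls.

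The ratio of Oma1 to Yme1l1 was 0.740, 0.985, 0.865 and 0.825 in cre_negative and 0.550, 0.627, 0.671 and 0.717 in cre_positive libraries 1 to 4. These groups did not overlap either, though cre_negative library 1 and cre_positive library 4 were close. The difference of the log2 ratios was -0.41 (exact two-sided permutation p = 0.0286, adjusted p = 0.0571). The paralog pairs gave smaller differences. Mfn1 to Mfn2 was 0.593 ± 0.0338 in controls and 0.582 ± 0.0322 after Cre (SD, n = 4 each), a difference of log2 ratios of -0.03 (exact two-sided permutation p = 0.657, adjusted p = 0.657). For Mief1 to Mief2 the difference was 0.17 (exact two-sided permutation p = 0.257, adjusted p = 0.343), with overlapping groups. After adjustment 0 of 4 ratios passed 0.05, and 2 of 4 passed it before. The smallest possible p is 0.0286, so 2 ratios at that p cannot pass after adjustment over 4, whatever their size. The adjusted result therefore decides nothing for these 2 ratios.

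As a share of the summed FPKM of the 8 fusion and fission genes, the 3 fusion genes made up 57.4%, 54.8%, 64.4% and 56.5% in cre_negative and 44.7%, 42.7%, 45.5% and 46.2% in cre_positive libraries 1 to 4. Fusion genes thus made up the larger part of the sum in each control and the smaller part in each cre_positive library. The summed level of fusion genes went from 350.5 ± 35.3 to 219 ± 17.6 FPKM (SD, n = 4 each). That of fission genes was 250.3 ± 26.0 in controls and 269 ± 14.8 FPKM after Cre, with overlapping ranges for the latter. Fis1 alone held 32.9% to 42.8% of the fission sum in controls and 43.6% to 47.4% in cre_positive libraries. These shares are descriptions of a set chosen with results known and carry no test.

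**Figure D3:**
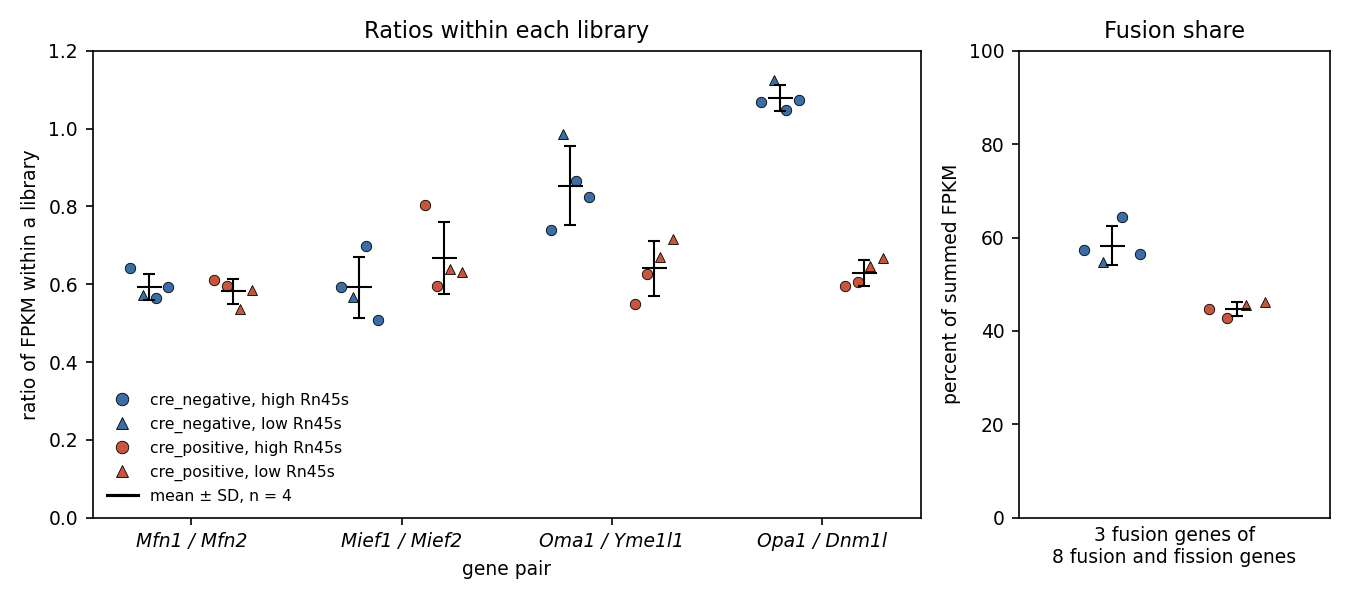
Left, ratio of FPKM between 2 genes of the same library for 4 gene pairs; right, the 3 fusion genes as a percent of the summed FPKM of the 8 fusion and fission genes; points are libraries and bars the mean ± SD (n = 4 per group). Opa1 to Dnm1l is near 1 in controls and from 0.595 to 0.667 in cre_positive libraries, and the fusion share is 54.8% to 64.4% against 42.7% to 46.2%.

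The order of levels changed between groups. In controls Mfn2 (177 FPKM) led, above Mfn1 (104.6 FPKM) in 4 of 4 libraries, followed by Fis1, Opa1, Mff, Dnm1l, Yme1l1, Oma1, Mief2 and Mief1. Mfn1 and Fis1, Fis1 and Opa1, Opa1 and Mff, Mff and Dnm1l, and Yme1l1 and Oma1 were neighbours whose ranges overlapped in controls, and Opa1 was above Mff in only 1 of 4 control libraries. In cre_positive libraries Fis1 (123 FPKM) stood above Mfn2 (114 FPKM) in 4 of 4 libraries, though their ranges overlapped. Opa1 dropped from the fourth place to the sixth, below Mff and Dnm1l in level, and just above Yme1l1 (37.9 and 31.6 FPKM). These are levels per length of transcript, and no test was made on the order.

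Other mitochondrial genes fell as well, and the members were set against 12 reference genes of mitochondrial content in the same library, among them citrate synthase (Cs), the porins and subunits of the import and respiratory complexes. The mean log2 FPKM of these 12 genes was 8.17 to 8.36 in controls and 7.59 to 7.72 in cre_positive libraries, a mean difference of -0.62. Relative to them, the cre_positive values of Opa1 lay below those of all controls, with a difference of -0.24. The gap was small, with the lowest control at -2.28 and the highest cre_positive library at -2.36. Single reference genes fell as much as Opa1 (-0.85) or more on the log2(FPKM + 1) scale. These were Hspd1 (-0.98), Timm23 (-0.86) and Uqcrc2 (-0.85), and the others changed less. Mfn1 (-0.03), Mfn2 (-0.01) and Oma1 (0.03) overlapped between the groups on this measure. Fis1 (1.00), Mff (0.59), Mief1 (0.54), Dnm1l (0.54) and Yme1l1 (0.44) were higher relative to the reference genes in each cre_positive library than in each control, and Mief2 (0.37) overlapped. On this measure 1 member was lower without overlap, as were 3.69% of all genes tested, and 5 were higher, as were 64.6%. Since the reference genes themselves fell, the median difference of all genes was 0.61, and those of Mff, Mief1 and Dnm1l were close to it. The count of 5 higher members is therefore no result about these genes. Fis1 (1.00) lay above that median and Yme1l1 (0.44) below it, and neither distance was tested.

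**Figure D4:**
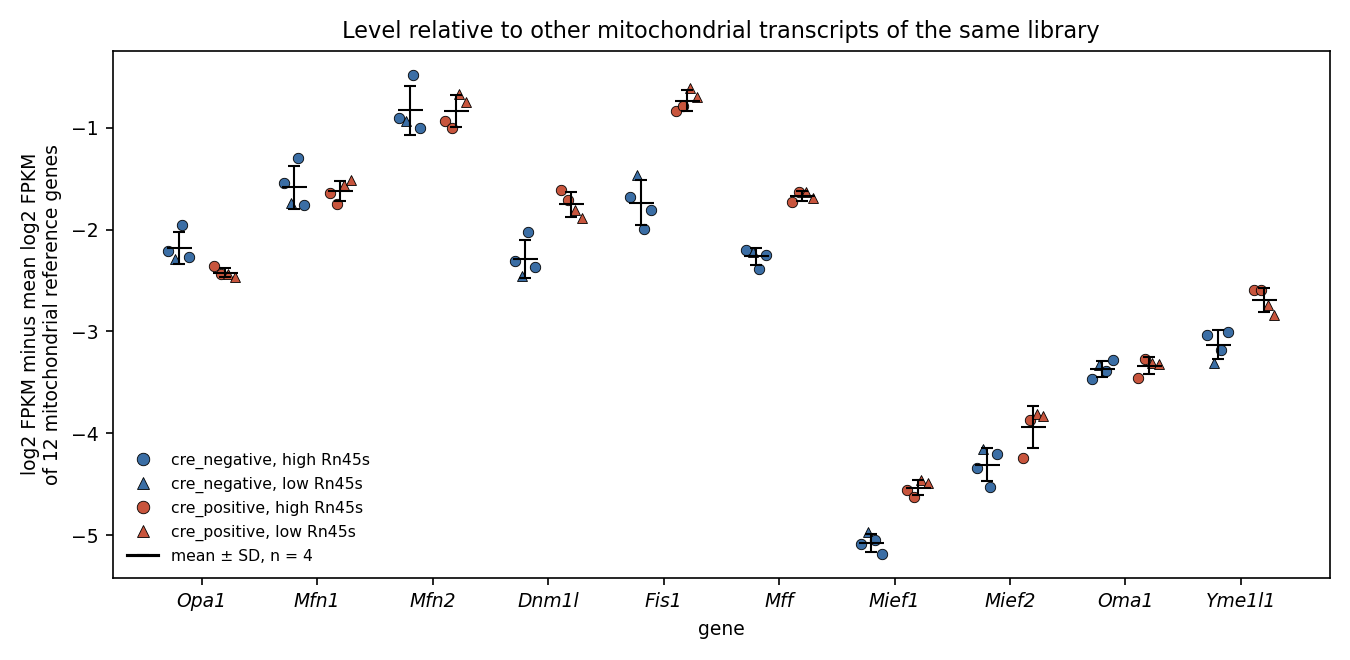
Log2 FPKM of each gene minus the mean log2 FPKM of the 12 mitochondrial reference genes of the same library; points are libraries and bars the mean ± SD (n = 4 per group). Opa1 is lower in cre_positive libraries, the fission genes other than Mief2 and also Yme1l1 are higher without overlap, as are 64.6% of all genes, and Mfn1, Mfn2 and Oma1 overlap.

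Genes listed here as accessory to fusion and fission went both ways. The lists were not split by whether a gene promotes or limits the process. The calls in these and the following lists stand beside 19.4% of all genes tested called lower and 19.7% called higher. Of 8 tested accessory genes of fusion 3 fell and 2 rose, with a median log2 change of -0.12, and Pld6, under 1 FPKM in every library, was not tested. The prohibitins, ring-forming scaffold proteins of the inner membrane that bear on Opa1 processing, were among those that fell: Phb2 went from 160.1 ± 17.9 to 89.2 ± 5.77 FPKM (log2 change -0.83) and Phb from 208 ± 22.9 to 146 ± 11.2 FPKM (-0.50; not called under a fixed sum, adjusted p = 0.0702). Msto1, a factor that promotes fusion, rose from 9.54 ± 1.04 to 13.2 ± 1.03 FPKM (log2 change 0.44). Slc25a46, an outer membrane carrier homolog and the most abundant gene of this list without a call, stood at 32.9 ± 2.17 and 28.9 ± 3.37 FPKM.

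Of 9 tested accessory genes of fission 4 fell and 1 rose, with a median of -0.03, and Gdap1 and Mtfr2 were too low to test. Mtfp1, an inner membrane protein whose loss makes mitochondria elongate in cultured cells, fell from 116 ± 24.1 to 47.7 ± 9.53 FPKM, a log2 change of -1.27 (limma adjusted p = 2.83e-04) that was larger than that of any of the 10 members. Mul1, an outer membrane ubiquitin ligase, fell from 13.2 ± 1.93 to 9.22 ± 1.49 FPKM (-0.48; not called under a fixed sum, adjusted p = 0.196). Dnm2, a dynamin best known from endocytosis, rose from 24.9 ± 2.14 to 35.1 ± 1.88 FPKM (log2 change 0.48), and Mtfr1l stood at 86.1 ± 11.6 and 85.0 ± 7.78 FPKM without a call.

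Of 7 other inner membrane proteases 3 fell and 0 rose, with a median of -0.10. Afg3l2, a subunit of the m-AAA protease, fell from 55.2 ± 4.53 to 36.2 ± 3.01 FPKM (log2 change -0.59). Its partner Spg7 had means of 43.9 ± 0.446 and 44.0 ± 1.98 FPKM without a call. Htra2 (-0.41) and Immp1l (-0.29) were called lower on the deposited scale and not under a fixed sum, where Immp1l turned to 0.02. The difference between Afg3l2 and Spg7 was not itself tested.

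MICOS, the complex that holds the cristae junctions with which Opa1 works, and its outer membrane bridge moved mostly one way. Of its 11 genes 8 fell and 0 rose, with a median of -0.49 (-0.19 under a fixed sum, where 6 were called lower and 1 higher). Dnajc11 fell from 34.4 ± 2.72 to 19.4 ± 0.792 FPKM (-0.80), Apoo from 197 ± 10.6 to 116 ± 11.5 FPKM (-0.77) and Samm50 from 121 ± 13.1 to 74.9 ± 8.68 FPKM (-0.69). The gene of the MICOS subunit Micos13, listed as 2410015M20Rik, stood at 119.8 ± 24.3 and 106 ± 17.0 FPKM without a call. Of 5 genes of mitochondrial transport 2 fell and 2 rose. Rhot2, a GTPase that links mitochondria to motors, fell from 52.3 ± 7.56 to 30.0 ± 4.46 FPKM (-0.78), and the adaptor Trak1 from 38.3 ± 10.2 to 24.0 ± 2.18 FPKM (-0.62, but -0.17 among low-Rn45s libraries; not called under a fixed sum, adjusted p = 0.137). The kinesin heavy chain Kif5b rose from 64.4 ± 6.53 to 113 ± 18.3 FPKM (0.79), and Rhot1 stood at 26.7 ± 2.16 and 25.0 ± 0.516 FPKM. Of the 12 reference genes 11 fell and 0 rose, with a median of -0.63, led by the chaperonin gene Hspd1 (-0.98), Timm23 (-0.86) and Uqcrc2 (-0.85), while Tomm20 was not called (-0.19). Under a fixed sum the medians of the fusion accessory (0.15), fission accessory (0.15), protease (0.20) and transport (0.21) lists turned positive, below the median of 0.26 for all genes, and Mtfr1l, Spg7 and Rhot1 were called higher.

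**Figure D5:**
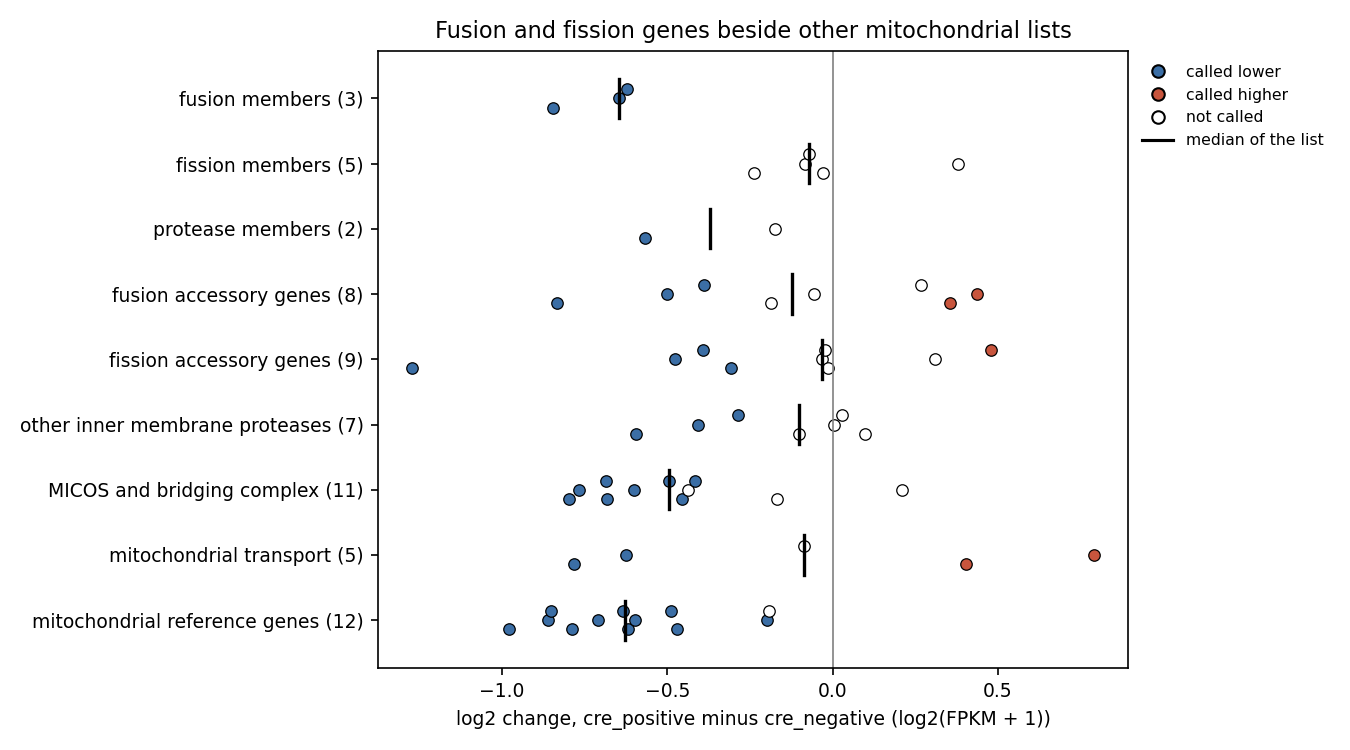
Log2 change (cre_positive minus cre_negative, log2(FPKM + 1)) of each tested gene of the fusion, fission and protease members and of 6 other mitochondrial lists; filled points were called by limma and bars are list medians. Fusion members (-0.65) lie near the reference genes (-0.63) and MICOS (-0.49), and fission members (-0.07) near the accessory lists (-0.12 and -0.03).

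In bulk ventricle, fewer cells of a type and less RNA per cell cannot be told apart, and markers of several cell types moved with these results. Of 8 cardiomyocyte markers 6 fell and 0 rose, and the summed level of the 7 without Ttn, which has missing values in some cre_positive libraries, ranged from 42332 to 46896 FPKM in controls and from 14817 to 16560 FPKM in cre_positive libraries. The most abundant of them, the myosin light chain gene Myl2, went from 20614 ± 592 to 6941 ± 353 FPKM (SD, n = 4 each). Changes within this list were uneven. Actn2 stood at 722 ± 94.0 and 716 ± 22.6 FPKM without a call. Under a fixed sum Actn2 was called higher (0.30, limma adjusted p = 0.0345). Ryr2 fell from 303 ± 61.7 to 38.2 ± 6.18 FPKM. Of 8 fibroblast markers 5 rose and 1 fell (summed level 656 to 785 against 1002 to 1156 FPKM), while the most abundant, the proteoglycan gene Dcn, stood at 399 ± 25.2 and 466 ± 36.6 FPKM without a call. Of 8 smooth muscle and pericyte markers 3 rose and 2 fell (578 to 713 against 978 to 1429 FPKM). That higher sum came from the smooth muscle actin gene Acta2, which rose from 194 ± 48.0 to 779 ± 169 FPKM (SD, n = 4 each). Without Acta2 the sum was 429 to 486 FPKM in controls and 381 to 442 FPKM in cre_positive libraries. Of 8 endothelial markers 3 fell (407 to 459 against 327 to 382 FPKM), and the most abundant, Pecam1, stood at 83.3 ± 5.57 and 73.9 ± 5.95 FPKM without a call. Of 8 macrophage markers 5 fell (188 to 239 against 121 to 158 FPKM), among them the complement gene C1qa, from 65.9 ± 2.49 to 39.4 ± 4.69 FPKM. Under a fixed sum the endothelial median turned from -0.28 to 0.01. All 8 lymphocyte markers were under 1 FPKM in every library. Their part in the changes of the fusion and fission genes was not tested.

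Both targeted genes had lower values in 4 of 4 cre_positive libraries than in any control, with log2 changes of -0.50 for Med13 and -0.74 for Med13l (limma adjusted p = 0.00612 and 3.18e-04), measured over the whole genes and not over the deleted exons. Under a fixed sum Med13 was not called (-0.22, adjusted p = 0.171). The libraries held an estimated 4.50 to 23.4 times 1000000 fragments. At such depth Mief1, the least abundant member, would rest on at least 73.6 fragments in a library if its transcript were 2 kb long, a counting error of 11.7%, and Opa1 on at least 339 fragments. Rn45s, the ribosomal RNA precursor, stood at 396 to 1053 FPKM in 5 libraries (cre_negative 1, 3 and 4, cre_positive 1 and 2) and at 10.3 to 16.0 FPKM in the 3 deepest ones (cre_negative 2, cre_positive 3 and 4). This split was found in the data and is not a batch named in the labels. The library names of cre_negative 1 and 2 share a number in their labels, which do not say whether they share an animal. The log2 profiles of these 2 libraries correlated at 0.982, the highest value among pairs of controls (0.969 to 0.982). Pairs of cre_positive libraries correlated at 0.976 to 0.988, so a value of this size also occurred there. Whether they share an animal was not tested. With the mean of cre_negative 1 and 2 as 1 sample, Opa1, Mfn1, Mfn2 and Oma1 were called lower again. Their limma adjusted p was 3.48e-05, 8.80e-04, 0.00308 and 0.00175 in that order. Fis1 was called higher (log2 change 0.45, limma adjusted p = 0.0282).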

How the data were processed

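Ventricular RNA of mouse hearts, 8 libraries in all, was sequenced after depletion of ribosomal RNA with a stranded kit, per the labels' protocols. The values the authors deposited are FPKM per gene. The submitters' processing notes list Bowtie2 2.2.6, Cufflinks and the build mm10, without their settings. From these values, limma 3.58.1 (R 4.3.3, variance trend) was fitted on log2(FPKM + 1) over the 11688 genes that averaged 1 FPKM or more, with Benjamini-Hochberg adjustment over all of them and a call at an adjusted p under 0.05. It was tested on simulated data. Fold changes on this scale understate those of low genes. Ratios within a library were compared by an exact permutation test. Words in 6 cells of 3 genes were treated as missing.

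The genes, lists and tests were chosen with earlier results of these data known. Named were the 10 members, Med13, Med13l, Rn45s, up to 3 called genes with the largest change and the most abundant uncalled gene of each pathway list, and the most abundant gene of each marker list. Actn2 and Ryr2 were added to show the unlike changes of cardiomyocyte markers. Depth was estimated from the steps between low FPKM values of 3664 genes with 1 annotated transcript (GENCODE M21), and 3 fragments correspond to 0.0642 to 0.333 FPKM for a 2 kb transcript. This covers counting error only. The labels do not name animals, so p-values measure the spread between these samples, which may be technical. Alternatives were the pseudocount, filter, scaling, variance trend, Rn45s set, trimming mark in the column name, replicate block, the mean of cre_negative 1 and 2 as 1 sample, and leaving out each library.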

Additional observations from a re-analysis of the deposited data

Results flagged for a closer look

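In cre_positive library 1, Mief2 stood at 10.2 FPKM while the other cre_positive libraries lay between 14.4 and 14.5 FPKM. The gap made up 0.961 of the range of the group, above Dixon's critical value for 4 samples. It was 1 of 28 groups checked, and such a check flags some groups by chance. Without that library the log2 change of Mief2 was -0.12 in place of -0.24 (limma adjusted p = 0.476 and 0.212). That library was also the shallowest, at an estimated depth of 4.50 in units of 1000000 fragments, and had the most Rn45s, and the part of either in the value was not tested.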

How the results depend on the processing

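Opa1 (-0.88 to -0.54), Mfn1 (-0.76 to -0.34), Mfn2 (-0.78 to -0.32) and Oma1 (-0.63 to -0.27) were called lower by limma in 21 of 21 alternatives. Between 4 and 6 of the 10 genes were called, and 3222 to 6392 of all genes, 3722 to 4651 when 1 library was left out. Scaling to a fixed sum moved the all-gene median to 0.26. It reversed Dnm1l to 0.22, Mff to 0.28, Mief1 to 0.21, Mief2 to 0.0531 and Yme1l1 to 0.13. Mff also turned to 0.0396 under quantile normalization and to 0.01003 with the mean of cre_negative 1 and 2 as 1 sample, and ran from -0.11 to 0.0154 when 1 library was left out. Fis1 was called higher in 7 of 21 alternatives, among them without cre_negative 2 (0.49, adjusted p = 0.00966) and without cre_positive 1 (0.44, adjusted p = 0.0458). It was not called without cre_negative 3 (0.25, adjusted p = 0.10) or cre_positive 3 (0.34, adjusted p = 0.131), nor without any of the other 4 libraries. Mief2 was called lower among low-Rn45s libraries alone (-0.32, adjusted p = 0.0365), a set with 1 control. Differences of log2 ratios ran from -0.82 to -0.74 for Opa1 to Dnm1l and from -0.51 to -0.33 for Oma1 to Yme1l1 in 13 alternatives each. With 7 libraries the exact permutation p before adjustment was under 0.05 in 9 of 9 settings for the first ratio. For the second it was so in 5 of 9. The adjusted p was under 0.05 in 0 of 9 for either. That decides nothing for the first ratio, since 1 or 2 ratios at the smallest possible p of 0.0286 cannot pass after adjustment. The same holds for the second ratio in the settings where it reached that p. In the others its exact permutation p was 0.0571, above 0.05 before adjustment. With 6 libraries or fewer the smallest possible p is 0.1 or more. Libraries with the same title number did not deviate together (correlations of -0.16 to -0.08 over genes). This cannot exclude a pairing. The column names hold other numbers, and same-numbered libraries 2, 3 and 4 differ in their Rn45s set. With the replicate block 3862 genes and 4 of the 10 were called.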
